A study of Mus musculus with 44 samples.

Results

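The 10 genes of fatty acid synthesis and desaturation followed here in mouse kidney are Srebf1, Acly, Acaca, Acacb, Fasn, Elovl6, Elovl5, Scd1, Scd2 and Fads1. They were chosen by name from the pathway, with earlier results of these data known, and are 10 of the 24733 genes with any value above 0. All 10 had a mean of at least 1 TPM and so were among the 12874 genes tested. TPM is a transcript abundance corrected for transcript length and scaled to the same total in every library, and here it was summed over the transcripts of a gene. Polyadenylated RNA was taken from kidneys of 129SV mice aged 8 to 12 weeks after birth, under night-restricted feeding in every group. The mice were labelled WT, with a working Bmal gene (Arntl), or KO, lacking it. Bmal encodes a core transcription factor of the circadian clock, and the labels do not say how the KO allele was made. Each genotype was sampled at zeitgeber times (ZT, hours after lights on) 0, 4, 8, 12, 16 and 20, with 2 libraries, A and B, in each of the 12 groups. The labels do not say whether libraries A and B came from separate animals, so p-values measure the spread between these libraries.

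New fatty acids are made from citrate that leaves the mitochondria. Acly encodes ATP citrate lyase, which splits cytosolic citrate into acetyl-CoA. Acaca and Acacb encode acetyl-CoA carboxylases, which make malonyl-CoA: the Acaca product supplies synthesis in the cytosol, and the Acacb product sits at the mitochondrial surface, where its malonyl-CoA restrains fatty acid entry for oxidation. Fasn encodes fatty acid synthase, whose main product is palmitate. Elovl6 lengthens saturated and monounsaturated chains, Elovl5 lengthens polyunsaturated chains, Scd1 and Scd2 are delta-9 desaturases that introduce the first double bond, and Fads1 is the delta-5 desaturase of polyunsaturated fatty acid synthesis. Srebf1 encodes SREBP-1, the transcription factor that drives most of these genes in response to feeding and insulin, and it has alternative promoters.

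The members lie on 5 autosomes (GRCm38). Srebf1 (ENSMUSG00000020538, chromosome 11, 60199089 to 60222581, minus strand), Acaca, Acly and Fasn (ENSMUSG00000025153, chromosome 11, 120805846 to 120824547, minus strand) share chromosome 11. Scd2 (ENSMUSG00000025203, chromosome 19, 44293674 to 44306864, plus strand) and Scd1 (ENSMUSG00000037071, chromosome 19, 44394455 to 44407879, minus strand) are neighbouring paralogs, and Fads1 (ENSMUSG00000010663, 10182888 to 10196877, plus strand) is on the same chromosome. Elovl6 (ENSMUSG00000041220) is on chromosome 3 at 129532355 to 129638495, plus strand, and Elovl5 (ENSMUSG00000032349) on chromosome 9 at 77917364 to 77984519, plus strand.

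Promoter sequence was available in the RefSeq table (GRCm38.p6) for 7 of the 10 members, with 9 start sites in all. The 250 bases before each start site were searched on both strands for the E-box CACGTG, to which BMAL1 and its partner CLOCK bind, and for the sterol regulatory element TCACNCCAC. The NF-Y box CCAAT was also searched, and it reads ATTGG where it lies on the opposite strand. The sequences below are shown because they carry these letters, 5′ to 3′ on the strand of the gene, with matches in capitals. CACGTG was found in the Elovl5 window alone, at -161 from the start site, and in 6.02% of all 32817 promoter windows of the same length. No member window held TCACNCCAC, which 1.05% of all windows held. CCAAT was found before Acacb, Elovl5, Fasn and a pair of the Srebf1 start sites, and in 33.8% of all windows; in Fasn the matches at -62 and -59 overlap. The Srebf1 windows are chr11:60222582-60222831 (before the outermost RefSeq start site) and chr11:60210472-60210721 (before the innermost RefSeq start site), both on the minus strand. The Fasn window is chr11:120824548-120824797 on the minus strand and the Elovl5 window chr9:77917115-77917364 on the plus strand. A match is a description of the letters only.
Srebf1, outermost start site: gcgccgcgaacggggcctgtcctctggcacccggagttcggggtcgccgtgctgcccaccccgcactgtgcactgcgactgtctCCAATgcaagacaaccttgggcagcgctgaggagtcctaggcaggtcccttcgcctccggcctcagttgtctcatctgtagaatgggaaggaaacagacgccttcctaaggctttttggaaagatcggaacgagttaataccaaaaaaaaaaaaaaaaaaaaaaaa
Srebf1, innermost start site: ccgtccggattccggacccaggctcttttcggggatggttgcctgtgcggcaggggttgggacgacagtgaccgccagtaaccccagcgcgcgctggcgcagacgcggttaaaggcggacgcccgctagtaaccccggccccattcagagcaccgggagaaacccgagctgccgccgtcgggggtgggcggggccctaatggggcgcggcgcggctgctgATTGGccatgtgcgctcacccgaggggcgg
Fasn: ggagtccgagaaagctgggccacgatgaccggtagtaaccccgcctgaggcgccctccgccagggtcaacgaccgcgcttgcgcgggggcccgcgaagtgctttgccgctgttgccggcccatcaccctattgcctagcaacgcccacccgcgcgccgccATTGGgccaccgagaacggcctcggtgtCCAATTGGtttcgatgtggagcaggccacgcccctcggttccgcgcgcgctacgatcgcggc
Elovl5: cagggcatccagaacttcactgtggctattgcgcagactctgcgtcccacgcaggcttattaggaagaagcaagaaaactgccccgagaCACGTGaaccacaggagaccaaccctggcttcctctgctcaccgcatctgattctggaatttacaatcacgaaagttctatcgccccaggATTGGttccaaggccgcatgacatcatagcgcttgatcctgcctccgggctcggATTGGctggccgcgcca

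Sequencing depth is unknown, because TPM keeps none. Between 12398 and 12911 genes reached 1 TPM per library. Arntl transcripts were still present in the KO libraries, at 4.19 to 6.28 TPM, against 0.295 to 12.9 TPM over the day in WT, and since the deleted part of the gene is not given in the sources used here, this level does not check the labels. The clock genes Cry1 and Nr1d1, downstream of it, served as the check of the labels. Cry1 lay between 11.5 and 17.8 TPM and Nr1d1 between 1.23 and 3.46 TPM in 11 of the 12 KO libraries, but the library labelled KO ZT4 A held 1.03 TPM of Cry1 and 23.8 TPM of Nr1d1, within the WT values for that time (0.845 to 1.2 and 22.0 to 33.0 TPM). The library labelled KO ZT12 A had a summed level of 4 Y-linked genes of 3.31 TPM, against 48.0 to 69.2 TPM in the other 23. Where leaving out both of these libraries ended a call reported here, the value without them is given. The same holds where leaving them out made a member call for a rhythm or for the genotype difference over all times. Member calls made that way at single times are given only as counts. Markers of proximal tubule summed to 2021 to 2676 TPM in the 24 libraries, and adrenal cortex markers to at most 1.46 TPM. Of all genes tested, 50.9% were higher and 10.0% lower in KO. All 5 collecting duct, all 3 podocyte and both distal tubule markers were higher, as were 3 of 5 hepatocyte markers with 1 lower, 2 of 3 thick limb markers with 1 lower, and 2 of 6 proximal tubule markers with 2 lower. Their part in the results on fatty acid genes was not tested.

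Elovl6, the elongase of saturated chains, had the largest genotype difference of the members, and Elovl5 and Scd2 were also higher in KO kidney. Scd1, Acaca and Fads1 were lower. Each of these 6 calls was also made in all 24 fits that each left out 1 library. So 3 of 10 members were higher and 3 lower at an adjusted p-value under 0.05 (limma with time of day as a factor), where 60.9% of all genes tested passed, 50.9% higher and 10.0% lower in KO. The median member difference was -0.13 on the log2(TPM + 0.1) scale, against 0.15 over all genes tested. The remaining members, Fasn, Srebf1, Acacb and Acly, did not pass.

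The scale of TPM matters for these counts. The median gene was 0.15 log2 units higher in KO, and when each library was instead scaled by the median ratio of its genes to their mean over libraries, the median difference was -0.00194. The size factors were 0.911 to 0.999 in WT and 0.98 to 1.13 in KO. Under that scaling 21.5% of genes were called higher and 22.6% lower, against 50.9% and 10.0% above. Of the members, Elovl6 was then the only higher call and 5 were lower: Scd1, Fasn, Acaca, Fads1 and Srebf1. Scd2 was at 0.10 (adjusted p 0.317) and Elovl5 at 0.06 (adjusted p 0.165) under it, so their higher TPM was not distinguishable from the shift shared by all genes.

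**Figure D1:**
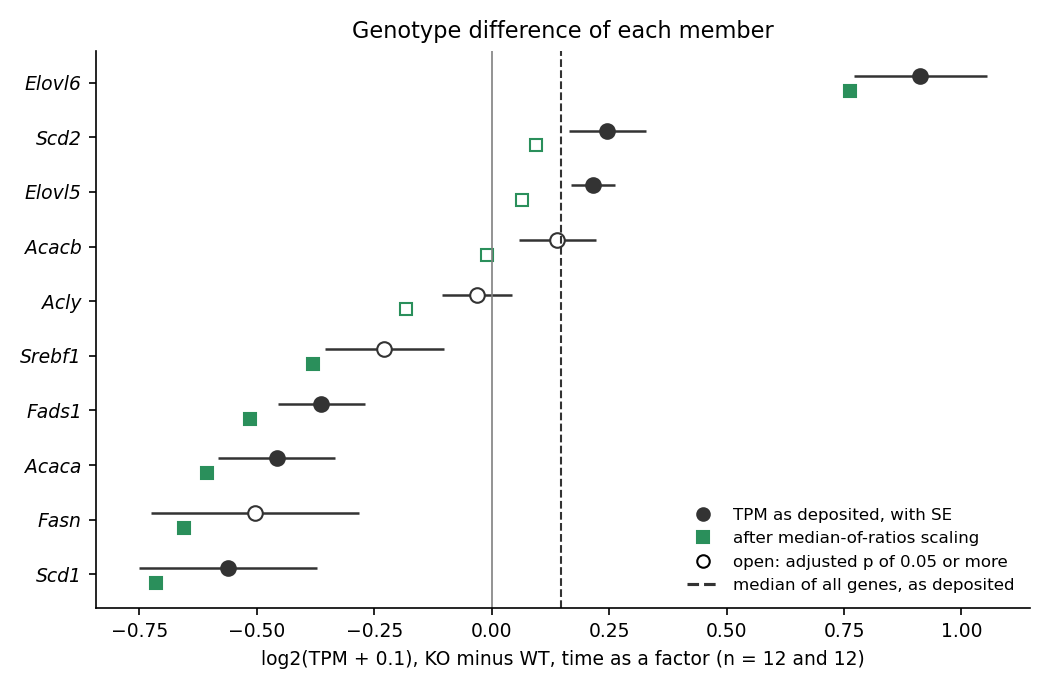
KO minus WT difference of each member in log2(TPM + 0.1), with time as a factor, over 12 libraries per genotype; circles are TPM as deposited with the standard error as bars, squares are the values after median-of-ratios scaling, filled symbols have an adjusted p under 0.05, and the dashed line is the median of all genes at 0.15. Elovl6 lies far to the right on both scales, and Scd1, Fasn, Acaca, Fads1 and Srebf1 lie to the left on both.

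Elovl6 was low and flat in WT, from 2.91 to 5.30 TPM with a median of 3.76. In KO it lay between 3.98 and 15.3 TPM with a median of 7.27. The KO libraries held 10.3 and 7.98 TPM at ZT0, 3.98 and 6.01 at ZT4, 6.88 and 5.95 at ZT8, 15.3 and 7.75 at ZT12, 7.20 and 7.44 at ZT16, and 7.34 and 5.25 at ZT20. Of the 12 KO libraries, 10 were above every WT library. The KO library lowest for Elovl6 was the library labelled KO ZT4 A, whose clock genes were at WT levels, and the highest was KO ZT12 A, whose Y-linked genes were low. The fitted difference was 0.91 log2 units (SE 0.14, adjusted p 2.79e-05), a 1.88-fold higher level, and without both of those libraries it was 0.89 (adjusted p 1.28e-06). The mean was higher in KO at 6 of 6 times.

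Elovl6 differed by time mainly at ZT12, ZT0 and ZT16. At ZT12 the difference was 1.56 log2 units (SE 0.27, adjusted p 0.000968), where 38.2% of genes passed, and the call was made in every fit that left out 1 library. Without KO ZT4 A and KO ZT12 A the Elovl6 difference at ZT12 was 1.07 (adjusted p 0.00655). At ZT0 it was 1.30 (adjusted p 0.0109; 13.4% of genes passed) and at ZT16 1.16 (adjusted p 0.00964; 21.5% of genes passed). The ZT0 call was lost without WT ZT0 A (adjusted p 0.0856), WT ZT0 B (0.0568) or KO ZT0 A (0.104), and the ZT16 call without WT ZT16 A (0.0949). No 24-hour rhythm passed for Elovl6 in either genotype: the range from trough to peak was fitted as 0.18 log2 units for WT (SE 0.29) and 0.49 for KO (SE 0.29).

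Elovl5 was present at several times the TPM of Elovl6 and differed far less. WT libraries held 17.3 to 24.6 TPM (mean 20.1 ± 2.31, SD, n = 12) and KO libraries up to 29.2 TPM (mean 23.4 ± 2.66, SD, n = 12), with 4 KO libraries above every WT library. The difference was 0.22 log2 units (SE 0.05, adjusted p 0.000648). All 6 times had a higher KO mean, and ZT12 alone passed (0.32, adjusted p 0.0421), which 9 of the 24 leave-one-out fits lost (adjusted p up to 0.214, without KO ZT12 A). It was also lost without KO ZT4 A and KO ZT12 A together (adjusted p 0.163) and under median-of-ratios scaling (0.07 log2 units, adjusted p 0.607). The Elovl5 to Elovl6 ratio, both in TPM, had a median of 5.15 in WT and 3.31 in KO.

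**Figure D2:**
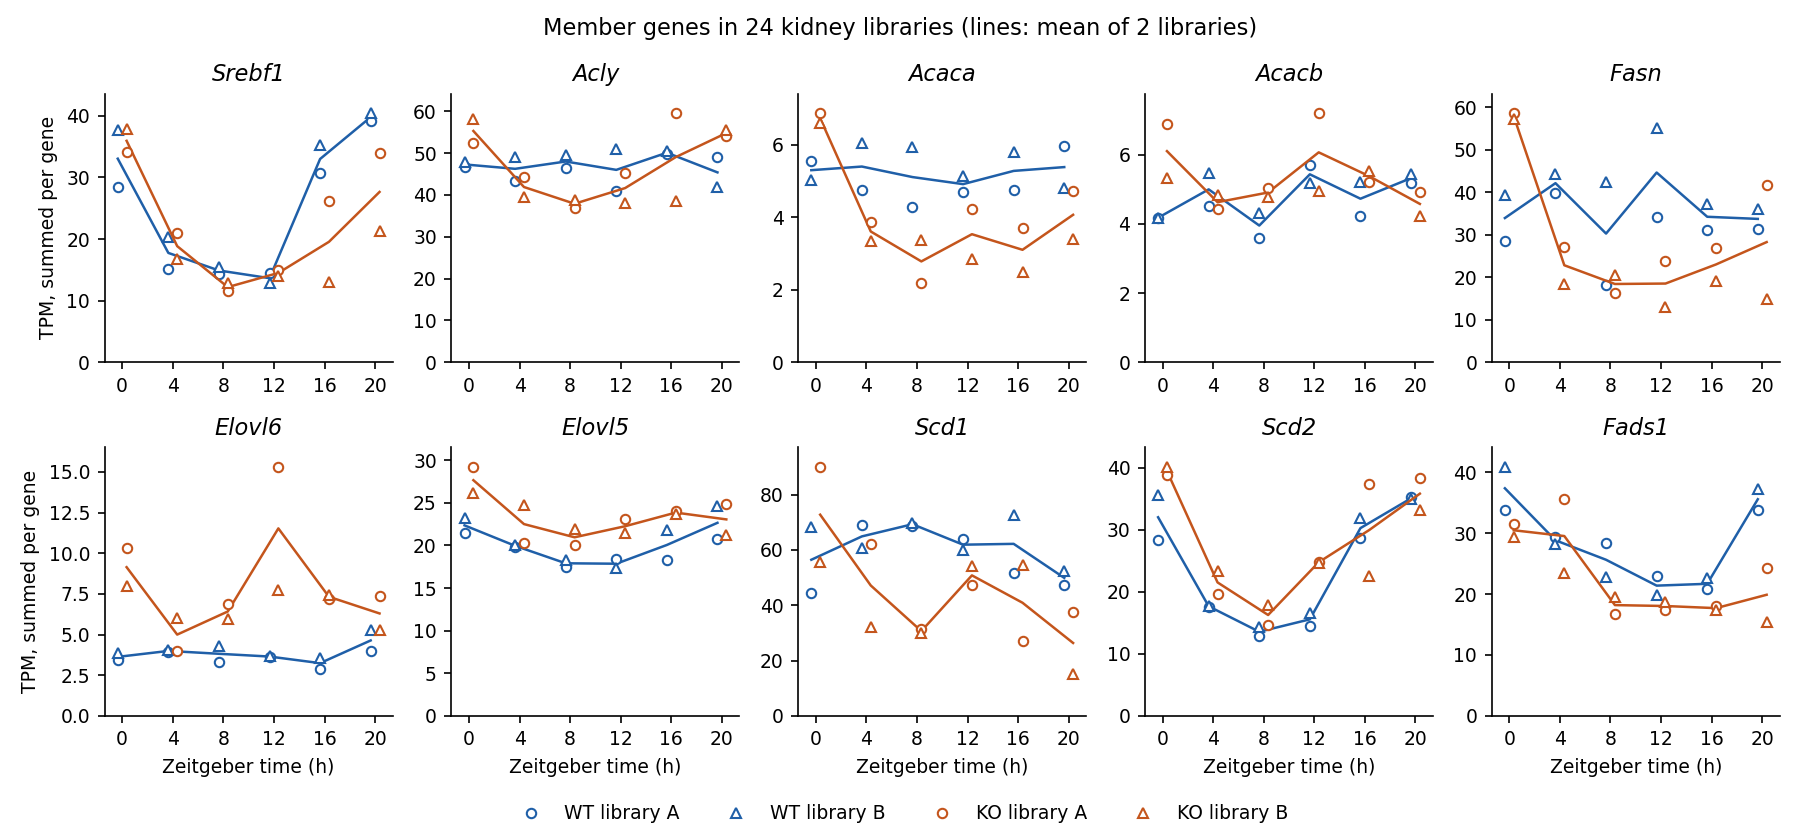
TPM of each member by zeitgeber time in 24 kidney libraries; circles are library A, triangles library B, lines join the means of the 2 libraries, blue is WT and orange KO, and every axis starts at 0. Srebf1 and Scd2 rise and fall over the day in both genotypes, while Elovl6 in KO sits above WT at all 6 times.

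Srebf1 had the largest fitted daily range of the members in both genotypes. WT libraries A and B held 28.4 and 37.7 TPM at ZT0, 15.1 and 20.4 at ZT4, 14.3 and 15.5 at ZT8, 14.5 and 12.8 at ZT12, 30.7 and 35.3 at ZT16, and 39.2 and 40.4 at ZT20. KO libraries held 34.1 and 37.8 TPM at ZT0, 21.0 and 16.7 at ZT4, 11.6 and 12.8 at ZT8, 15.0 and 14.0 at ZT12, 26.1 and 13.0 at ZT16, and 34.0 and 21.3 at ZT20. Levels were low from ZT4 to ZT12 in both genotypes, and the KO pairs at ZT16 and ZT20 were wide apart. In WT the fitted range from trough to peak spanned 1.67 log2 units (SE 0.23; adjusted p 0.000269) with the peak at 20.5 h (SE 0.52). In KO it spanned 1.41 log2 units (SE 0.23; adjusted p 0.00637) with the peak at 22.2 h (SE 0.62). The KO peak was fitted 1.73 h later, and the rhythms did not differ by test (adjusted p 0.472). These rhythms passed in all 24 leave-one-out fits.

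The mean level of Srebf1 did not pass between genotypes (-0.23 log2 units, SE 0.13, adjusted p 0.127), and did under median-of-ratios scaling (-0.38, adjusted p 0.0196). At ZT16 Srebf1 was lower in KO by 0.84 log2 units as deposited (SE 0.27, adjusted p 0.0400), 19.5 against 33.0 TPM. This call was lost in 7 of the 24 leave-one-out fits, with an adjusted p of 0.368 and a difference of -0.33 without KO ZT16 B. At ZT0, by contrast, KO was at 35.9 TPM and WT at 33.0 TPM, a gap of 0.13 log2 units that missed the threshold (adjusted p 0.768).

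Srebf1 start sites were compared through its transcripts. Of 12 annotated transcripts, 8 had a mean of at least 1 TPM and held 90.8% of the gene's TPM. Srebf1-201, a protein-coding transcript starting at 60220604, was the most abundant, at 6.28 TPM. Srebf1-204, whose start at 60222581 is the outermost, is annotated as not coding and had 3.46 TPM. The protein-coding Srebf1-207, from a start at 60210465 close to the innermost RefSeq start site, had 1.45 TPM. Srebf1-203, also protein-coding, starts further inside the gene at 60207188 and had 3.18 TPM. A WT rhythm passed for Srebf1-201 (peak-to-trough 0.95 log2 units, SE 0.22, peak 20.2 h, adjusted p 0.0254) and Srebf1-207 (2.60, SE 0.57, peak 20.9 h, adjusted p 0.0217), and also for Srebf1-206, a short non-coding annotation within the gene. The call for Srebf1-201 was lost without WT ZT20 B (adjusted p 0.0879), and that for Srebf1-207 without WT ZT0 B, WT ZT8 B or WT ZT12 A (0.0512, 0.0535 and 0.0503). In KO no Srebf1 transcript passed. The KO range was fitted as 0.87 log2 units for Srebf1-201 (SE 0.22, adjusted p 0.0948) and 1.83 for Srebf1-207 (SE 0.57, adjusted p 0.217). Their rhythms did not differ between genotypes by test (adjusted p 0.828 and 0.884). The division of reads among overlapping transcripts is an estimate, so the gene sum is the firmer value.

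Over all members, 24 transcripts had a mean of at least 1 TPM. Of these, 7 passed for the genotype difference (39.1% of 26201 transcripts passed), 6 for the WT rhythm (6.89%) and 3 for the KO rhythm (1.26%). Those 3 were Scd2-201, Fads1-201 and Acly-207, the coding transcript with 63.4% of the Acly TPM (0.68 log2 units, SE 0.12, peak 21.5 h, adjusted p 0.0178).

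Scd2, a delta-9 desaturase, was rhythmic in both genotypes, as Srebf1 was. In WT it held 28.4 and 35.6 TPM at ZT0, 17.6 and 17.7 at ZT4, 12.8 and 14.3 at ZT8, 14.5 and 16.6 at ZT12, 28.6 and 31.9 at ZT16, and 35.2 and 34.9 at ZT20. In KO it held 38.8 and 40.1 TPM at ZT0, 19.6 and 23.4 at ZT4, 14.7 and 17.8 at ZT8, 24.8 and 24.7 at ZT12, 37.4 and 22.5 at ZT16, and 38.4 and 33.2 at ZT20. The trough was at ZT8 in both genotypes, and at ZT12 both KO libraries were above both WT libraries. The trough-to-peak range spanned 1.52 log2 units (SE 0.17, peak 20.4 h, adjusted p 2.78e-05) in WT and 1.14 (SE 0.17, peak 20.5 h, adjusted p 0.00280) in KO, with an adjusted p of 0.654 for the difference in rhythm. As a description over the same libraries, Srebf1 and Scd2 had a Pearson correlation of log2 values of 0.97 in the 12 WT libraries and 0.88 in the 12 KO libraries.

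The genotype difference of Scd2 was 0.25 log2 units as deposited (SE 0.08, adjusted p 0.0146), and 5 of 6 times had a higher KO mean. It passed at ZT12 alone, at 0.67 (SE 0.18, adjusted p 0.0108), and was lost there without WT ZT12 A (adjusted p 0.0738) or KO ZT12 A (0.0596), without KO ZT4 A and KO ZT12 A together (0.0542), and under median-of-ratios scaling (0.42 log2 units, adjusted p 0.0792).

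Scd1 had the highest TPM of the members in WT and, unlike its paralog, no rhythm that passed. WT libraries held 44.6 to 72.6 TPM with a median of 62.2. KO libraries spread from 15.0 to 90.0 TPM with a median of 42.6, and 6 of them were below every WT library while 1 was above. The KO pairs were 90.0 and 55.5 TPM at ZT0, 62.1 and 32.2 at ZT4, 31.4 and 29.9 at ZT8, 47.4 and 54.2 at ZT12, 27.1 and 54.7 at ZT16, and 37.7 and 15.0 at ZT20. Only the pairs at ZT8 and ZT12 were close to each other. Scd1 was lower in KO by 0.56 log2 units (SE 0.19, adjusted p 0.0159), with KO lower at 5 of 6 times, and by 0.63 without KO ZT4 A and KO ZT12 A (adjusted p 0.0137). At ZT8, where its difference was widest (-1.17, SE 0.43), the adjusted p was 0.0782.

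The ratio of Scd1 to Scd2 in TPM had a median of 2.85 in WT, from 1.35 to 5.38, and of 1.80 in KO, from 0.452 to 3.17. Scd1 exceeded Scd2 in all 12 WT libraries and in 9 of 12 KO libraries. The paralogs are similar in sequence, and how reads shared by both were divided between them is an estimate of the quantification program.

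Fads1, the delta-5 desaturase, was lower in KO and rhythmic in both genotypes. WT libraries held 33.9 and 40.9 TPM at ZT0, 29.4 and 28.3 at ZT4, 28.4 and 22.9 at ZT8, 23.0 and 19.8 at ZT12, 20.8 and 22.6 at ZT16, and 33.9 and 37.3 at ZT20. KO libraries held 31.6 and 29.4 TPM at ZT0, 35.6 and 23.5 at ZT4, 16.8 and 19.6 at ZT8, 17.4 and 18.7 at ZT12, 18.0 and 17.4 at ZT16, and 24.3 and 15.5 at ZT20. The WT mean was 35.6 TPM at ZT20 and 37.4 TPM at ZT0. The KO mean was 19.9 TPM at ZT20, where the pair was wide apart, and 30.5 TPM at ZT0. The KO library highest for Fads1 was the library labelled KO ZT4 A. The difference was -0.36 log2 units (SE 0.09, adjusted p 0.00238), and -0.42 (adjusted p 0.000342) without KO ZT4 A and KO ZT12 A.

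By time, Fads1 passed at ZT20 alone, where KO was lower by 0.87 log2 units (SE 0.20, adjusted p 0.0300) and 3.72% of all genes passed. The ZT20 call was lost without WT ZT20 A (adjusted p 0.111), WT ZT20 B (0.184) or KO ZT20 B (0.218). The Fads1 trough-to-peak range spanned 0.83 log2 units (SE 0.18, peak 23.8 h, adjusted p 0.00927) in WT and 0.85 (SE 0.18, peak 1.66 h, adjusted p 0.0233) in KO. The Fads1 rhythms did not differ by test (adjusted p 0.652). The KO rhythm was lost without KO ZT0 B (adjusted p 0.0622) and without KO ZT4 A and KO ZT12 A together (adjusted p 0.0569).

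**Figure D3:**
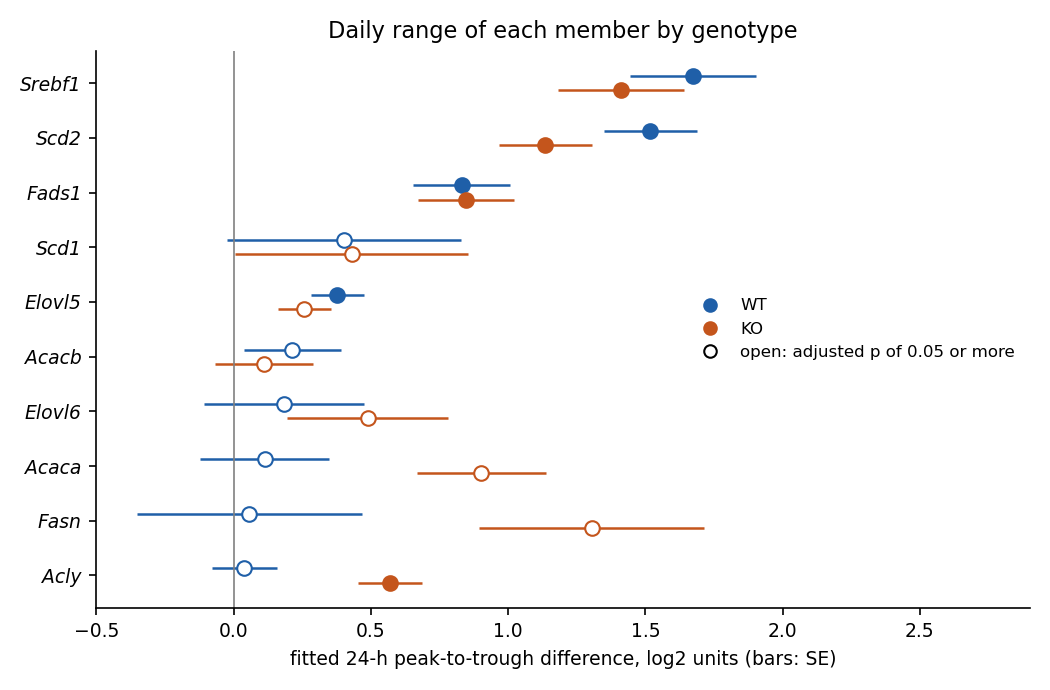
Fitted 24-hour peak-to-trough difference of each member in log2 units, WT in blue and KO in orange, with standard errors as bars and filled symbols for an adjusted p under 0.05. Srebf1 and Scd2 have the widest ranges in WT, and Acly, Fasn and Acaca have near-zero ranges in WT and wider fitted ranges in KO.

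Counted together, a rhythm passed for 4 members in WT (Srebf1, Scd2, Fads1 and Elovl5) where 13.7% of all genes passed, and for 4 in KO (Srebf1, Scd2, Fads1 and Acly) where 3.64% passed. The Elovl5 rhythm was shallow, at 0.38 log2 units in WT (SE 0.10, peak 22.0 h, adjusted p 0.0293), and 5 of the 24 leave-one-out fits lost it (adjusted p up to 0.0856, without WT ZT20 B). Median peak-to-trough differences of the 10 members were 0.30 log2 units in WT and 0.71 in KO, against 0.25 and 0.21 over all genes tested. The KO calls used a spread shared with WT: fitted on the 12 KO libraries alone, none of the 4 passed, with adjusted p-values of 0.0964 for Scd2, 0.0994 for Srebf1, 0.174 for Acly and 0.175 for Fads1. When each of the 6 times had its own mean and no cosine was fitted, Srebf1 and Scd2 passed in WT, and Fads1 (adjusted p 0.0560) and Elovl5 (0.216) did not, while in KO only Scd2 passed (0.0294). No member passed the test of a difference in rhythm in limma, where 0.629% of genes did, and Acly was the only member with an unadjusted p under 0.05 (p 0.00768, adjusted p 0.185).

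Acly was level over the day in WT, from 41.0 to 51.0 TPM with a median of 48.5. In KO it ranged from 37.0 to 59.5 TPM, with 5 libraries below and 5 above every WT library. The KO pairs were 52.4 and 58.2 TPM at ZT0, 44.2 and 39.6 at ZT4, 37.0 and 38.8 at ZT8, 45.2 and 38.1 at ZT12, 59.5 and 38.6 at ZT16, and 54.0 and 55.6 at ZT20. KO was lowest at ZT8 and high at ZT20 and ZT0. The trough-to-peak range was fitted as 0.04 log2 units (SE 0.12, adjusted p 0.969) in WT and 0.57 (SE 0.12, peak 20.8 h, adjusted p 0.0218) in KO, and the KO call was lost without KO ZT0 B (adjusted p 0.0507) or KO ZT8 A (0.0509). Mean levels were close, at 47.2 TPM ± 3.41 (SD, n = 12) in WT and 46.8 ± 8.62 (SD, n = 12) in KO, and the difference was -0.03 log2 units (SE 0.07, adjusted p 0.738).

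Acaca was lower in KO at all times but ZT0. WT libraries held 4.28 to 6.05 TPM with a median of 5.08. KO libraries held 6.86 and 6.59 TPM at ZT0, 3.86 and 3.35 at ZT4, 2.19 and 3.37 at ZT8, 4.22 and 2.84 at ZT12, 3.71 and 2.49 at ZT16, and 4.72 and 3.41 at ZT20. Of the 12 KO libraries, 9 were below every WT library and the pair at ZT0 was above every WT library. The mean difference was -0.46 log2 units (SE 0.13, adjusted p 0.00395), 0.728 of the WT level. It passed at ZT8 (-0.87, SE 0.25, adjusted p 0.0324; 14.6% of genes passed) and at ZT16 (-0.77, adjusted p 0.0421). Acaca-201, the coding transcript with 76.25% of the Acaca TPM, was lower in KO by 0.36 log2 units (SE 0.13, adjusted p 0.0354). That transcript call was lost in 12 of 24 leave-one-out fits (adjusted p up to 0.0665).

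Those time-point calls for Acaca rest on few libraries: the ZT8 call was lost without WT ZT8 A, WT ZT8 B or KO ZT8 A (adjusted p 0.0610, 0.215 and 0.317), and the ZT16 call in 9 of 24 leave-one-out fits (adjusted p up to 0.266, without KO ZT16 B). No rhythm passed: the fitted range was 0.11 log2 units for WT (SE 0.23) and 0.90 for KO (SE 0.23, adjusted p 0.0666). The KO rhythm of Acaca passed under median-of-ratios scaling (adjusted p 0.0450) and without KO ZT4 A and KO ZT12 A (adjusted p 0.0182).

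Acacb, the other carboxylase, did not pass for a genotype difference, at any time or for a rhythm. It held 3.59 to 5.69 TPM in WT (median 4.85) and 4.24 to 7.19 TPM in KO (median 4.99), and the difference was 0.14 log2 units (SE 0.08, adjusted p 0.144). Of its TPM, 46.6% was assigned to Acacb-204, a transcript annotated as a retained intron, and 28.0% to the protein-coding Acacb-201. Acaca exceeded Acacb in 9 of 12 WT libraries and in 1 of 12 KO libraries, with a median ratio of 1.12 in WT and 0.709 in KO.

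Fasn varied widely between libraries, and the KO values spread more than those of WT. WT libraries held 28.4 and 39.4 TPM at ZT0, 39.9 and 44.3 at ZT4, 18.1 and 42.4 at ZT8, 34.1 and 55.1 at ZT12, 31.1 and 37.3 at ZT16, and 31.3 and 36.1 at ZT20. KO libraries held 58.5 and 57.2 TPM at ZT0, 27.2 and 18.4 at ZT4, 16.3 and 20.5 at ZT8, 23.9 and 13.1 at ZT12, 26.8 and 19.2 at ZT16, and 41.6 and 14.9 at ZT20. KO was above WT at ZT0 and below it in mean at the 5 other times. The mean difference was -0.50 log2 units (SE 0.22) with an adjusted p of 0.0572, and 6 of the 24 leave-one-out fits made the call (adjusted p 0.0193 without WT ZT0 A).

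At ZT12 the Fasn difference of -1.29 log2 units (SE 0.47) had an adjusted p of 0.0454 and was lost in 18 of 24 leave-one-out fits. The deposited sum for Fasn is 39.6% Fasn-202 and 31.5% Fasn-203, both annotated as retained introns, and 28.8% Fasn-201, the coding transcript. Fasn-201 alone was lower in KO by 0.53 log2 units (SE 0.19, adjusted p 0.0346), with 10.6 TPM ± 2.05 (SD, n = 12) in WT and 8.00 ± 4.29 (SD, n = 12) in KO. That call was lost in 12 of 24 leave-one-out fits, with adjusted p-values up to 0.0667.

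**Figure D4:**
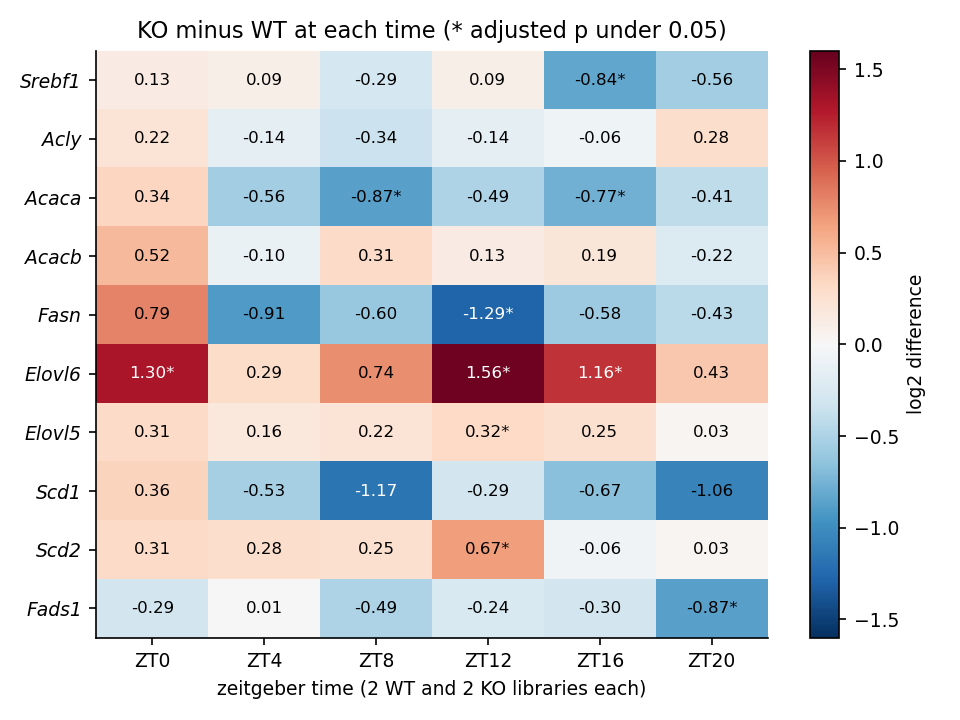
KO minus WT difference in log2(TPM + 0.1) of each member at each zeitgeber time, 2 libraries per genotype and time; red is higher and blue lower in KO, and a star marks an adjusted p under 0.05. At ZT0 all members but Fads1 are on the red side, with a star for Elovl6 alone, and no cell of the ZT4 column has a star.

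No member passed at ZT4, where 0.0% of genes did in limma (0 calls, with 1637 genes at an unadjusted p under 0.05), and where the library labelled KO ZT4 A is 1 of the 2 KO libraries. At ZT0 the KO means of Fasn, Acaca and Acacb were 57.9, 6.73 and 6.10 TPM against 33.9, 5.29 and 4.18 TPM in WT, and none of the 3 passed (adjusted p 0.271, 0.373 and 0.0527).

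Fat markers moved between libraries with some of these genes. Adipose tissue lies against the kidney and expresses Fasn, Acaca, Acacb, Acly, Scd1 and Elovl6 strongly. The sum of 9 adipocyte markers ranged from 5.64 to 43.6 TPM in WT (median 26.0) and from 5.13 to 48.3 TPM in KO (median 15.4), and none of the 6 markers that were tested passed between genotypes. Lipe, a lipase gene, gave at least 4.66 TPM in every library, while Adipoq reached 4.10 TPM in WT and 5.15 in KO, and Plin1, Lep, Cidea and Ucp1 were at 0 in 1 or more libraries. The sum averaged 44.6 TPM in KO and 6.24 TPM in WT at ZT0. Group means in WT were 6.24 and 6.76 TPM at ZT0 and ZT20 and 22.0 to 37.6 TPM at the other times. Group means in KO ran from 7.30 TPM at ZT4 to 44.6 TPM at ZT0. Libraries of a group could differ widely, as at ZT8 in WT (10.4 and 33.7 TPM) and at ZT12 in KO (48.3 and 7.23 TPM). A daily movement of the sum was not tested. In bulk tissue, fewer cells of a type and less RNA per cell cannot be told apart.

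The 10 correlations of log2 values with this sum were computed over the 24 libraries, after the data were seen. The permutations shuffled all 24 libraries freely, without regard to genotype and time. Their p-values therefore do not separate differences between groups from spread between libraries within a group. Fasn had a Pearson r of 0.617 (permutation p 0.00176, adjusted 0.0176) and a Spearman rho of 0.592 (permutation p 0.00293, adjusted 0.0293), with r 0.499 within WT and 0.777 within KO, and 0.627 without the 2 libraries farthest from the median. Acacb had r 0.520 (permutation p 0.00815, adjusted 0.0408) and rho 0.550 (permutation p 0.00614, adjusted 0.0307), with r 0.354 within WT and 0.792 within KO, and 0.586 without those 2 libraries. The other 8 members did not pass after adjustment. Elovl6 followed the sum within KO (r 0.730) and not within WT (r -0.150), and Fads1 had r -0.841 within WT and 0.279 within KO.

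With the logarithm of the sum as a covariate, all 6 genotype calls of the members were made again. Fasn then passed as well, at -0.43 log2 units (adjusted p 0.00388), and its fitted KO rhythm passed (1.12, adjusted p 0.0245), as did that of Acaca (0.81, adjusted p 0.0349). The WT range of Acaca rose as well, from 0.11 to 0.58 (adjusted p 0.144), and its rhythm difference had an adjusted p of 0.711. Fasn-201, the coding transcript, passed for a rhythm in both WT (0.87, adjusted p 0.0411) and KO (0.97, adjusted p 0.0260) with this covariate. Without the covariate neither passed, at 0.14 (adjusted p 0.972) in WT and 1.17 (adjusted p 0.216) in KO. Each of these rhythms passed in only 1 of 12 other settings, so neither passed with Lipe left out of the sum. With Lipe left out of the sum, Fasn again passed between genotypes (-0.44, adjusted p 0.00752), and its KO rhythm (adjusted p 0.0610) and that of Acaca (0.0561) did not. Elovl6 was at 0.94 (adjusted p 1.18e-05) with the covariate. At ZT0, no member passed with either form of the covariate.

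**Figure D5:**
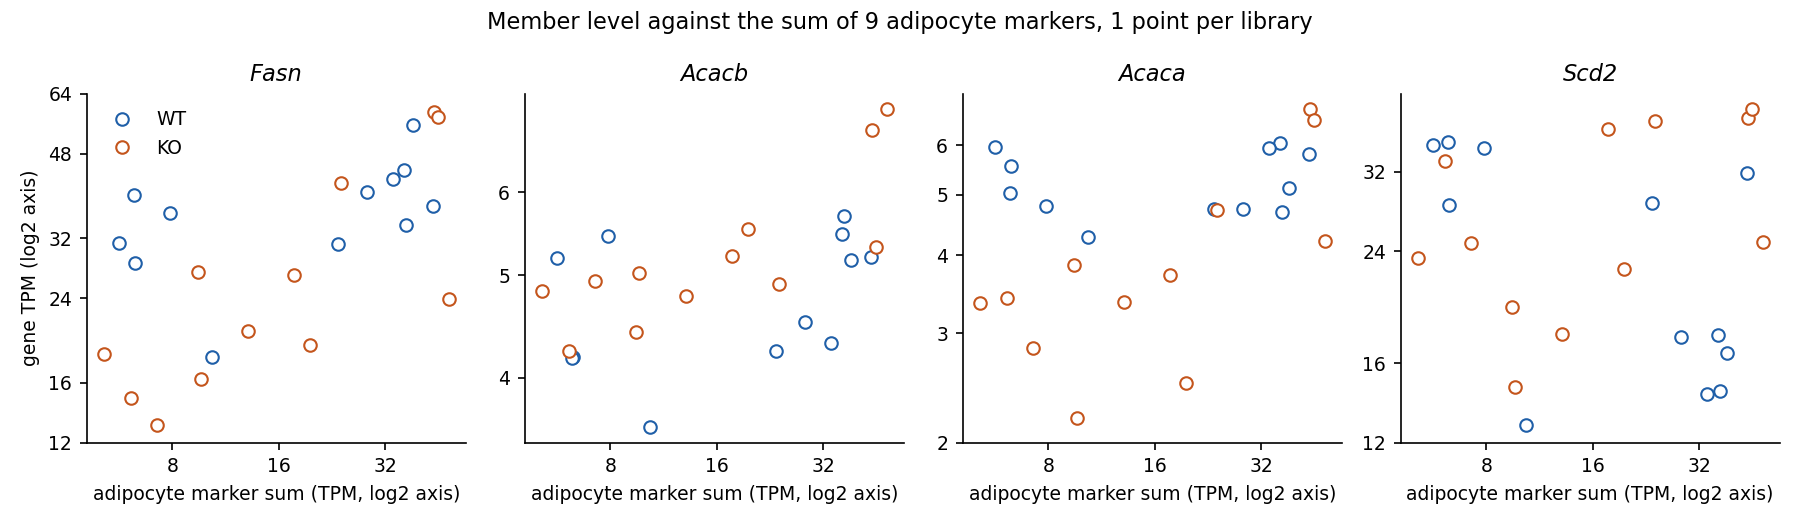
TPM of Fasn, Acacb, Acaca and Scd2 against the summed TPM of 9 adipocyte markers, 1 point per library, WT in blue and KO in orange, on log2 axes. Fasn points rise with the marker sum in both genotypes, and the 2 KO libraries at ZT0 are at the upper right, while Scd2 shows no such rise over all libraries.

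The other genes of the pathway were read from lists that hold the regulators and the steps before and after. Their counts stand against 50.9% of all genes higher and 10.0% lower as deposited, and 21.5% and 22.6% after median-of-ratios scaling. Among 17 tested of 18 regulators, 5 were higher and 6 lower in KO as deposited, with a median difference of 0.01 log2 units, and under median-of-ratios scaling none was higher and 8 were lower. Mlx, the partner of the carbohydrate-responsive factor ChREBP, was lower by 0.34 log2 units (SE 0.05, adjusted p 2.29e-05), and passed for a rhythm in KO (0.49 log2 units, adjusted p 0.00914), with an adjusted p of 0.841 in WT and of 0.137 for the difference in rhythm. Insig1, which holds SREBP in the endoplasmic reticulum, was lower by 0.55 (SE 0.15, adjusted p 0.00361), with 11.9 to 32.9 TPM in WT and 8.11 to 26.6 TPM in KO.

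Insig1 was rhythmic in both genotypes, with peaks at 22.4 h and 0.0716 h. Its WT rhythm (1.13 log2 units, adjusted p 0.0362) was lost in 7 and its KO rhythm (1.33, adjusted p 0.0359) in 8 of the 24 leave-one-out fits, and the latter also without KO ZT4 A and KO ZT12 A together (adjusted p 0.0827). Scap, the SREBP escort, and Usf2, an E-box factor, were higher as deposited, by 0.19 (adjusted p 0.000122) and 0.20 (adjusted p 2.76e-05), and did not pass after median-of-ratios scaling (adjusted p 0.411 and 0.147). Srebf2, the sterol-side paralog of Srebf1, was rhythmic in WT (0.56 log2 units, peak 23.9 h, adjusted p 0.0272), a call lost in 3 leave-one-out fits (adjusted p up to 0.103, without WT ZT12 B), as was Nr1h2, a liver X receptor gene (0.37, peak 7.06 h, adjusted p 0.0108), lost without WT ZT8 A (adjusted p 0.0545). Neither gene passed for a KO rhythm (adjusted p 0.393 for Srebf2 and 0.307 for Nr1h2) or for a difference in rhythm (0.736 and 0.487).

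Of 10 tested genes that supply acetyl-CoA precursors and NADPH, 6 were higher and 1 lower as deposited, shares near the 50.9% and 10.0% of all genes. The lower gene was Me1, malic enzyme, which supplies NADPH to fatty acid synthase. It held 183 to 211 TPM in WT and 60.5 to 196 TPM in KO, where KO ZT12 A was the lowest, KO ZT4 A the highest and the other 10 libraries at 87.5 to 133 TPM, all below WT. Me1 was lower by 0.80 log2 units (SE 0.10, adjusted p 4.02e-06). Pklr, a pyruvate kinase, was higher by 0.49 (SE 0.07, adjusted p 4.80e-06) and was the only gene of this list still higher after median-of-ratios scaling, where 3 were lower. Cs, citrate synthase, was at 0.23 as deposited (adjusted p 0.000126) and 0.07 after scaling (adjusted p 0.0973). Idh1, another NADPH source, was rhythmic in both genotypes: 0.52 log2 units peaking at 23.2 h in WT (adjusted p 0.00864) and 0.50 peaking at 23.3 h in KO (adjusted p 0.0288), and 4 leave-one-out fits lost the KO call (adjusted p up to 0.0988, without KO ZT0 B).

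Of 11 tested genes of other elongation and desaturation steps, 7 were higher and 2 lower (50.9% and 10.0% of all genes), and 4 and 4 after median-of-ratios scaling (21.5% and 22.6%). Fads6, an uncharacterised desaturase homologue, was higher by 0.59 log2 units (SE 0.06, adjusted p 6.33e-07), with 5.53 to 7.06 TPM in WT and 6.61 to 13.7 TPM in KO. The lowest KO library was KO ZT4 A and the highest KO ZT12 A, and the other 10 held 8.63 to 10.6 TPM of Fads6, all above WT. Elovl7, an elongase of long saturated chains, was higher by 0.25 (SE 0.04, adjusted p 1.82e-05), and was rhythmic in WT (0.35 log2 units, peak 21.6 h, adjusted p 0.0123). Hacd3, a dehydratase of the elongation cycle, was at 0.20 as deposited (adjusted p 6.30e-05) and did not pass after scaling (adjusted p 0.200). Elovl2, which elongates polyunsaturated chains beyond the step of Elovl5, was rhythmic in WT by 1.25 log2 units (SE 0.28, peak 23.1 h, adjusted p 0.0137), with a fitted 0.36 (SE 0.28) in KO and an adjusted p of 0.393 for the difference. Fads2, the delta-6 desaturase that acts before Fads1, was rhythmic in KO (0.62 log2 units, SE 0.10, peak 3.04 h, adjusted p 0.00716) and at 0.34 (adjusted p 0.0762) in WT. The Fads2 rhythms did not differ by test (adjusted p 0.378).

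Of 11 tested genes of fatty acid activation and glycerolipid synthesis, 4 were higher and 1 lower (50.9% and 10.0% of all genes), and 2 and 5 after scaling (21.5% and 22.6%). Acsl1 and Acsl5, acyl-CoA synthetases, were higher by 1.11 (SE 0.18, adjusted p 4.23e-05) and 0.66 (SE 0.07, adjusted p 4.01e-07), with Acsl1 at 35.4 to 74.0 TPM in WT and 67.5 to 230 TPM in KO. Both KO extremes were the libraries labelled KO ZT4 A and KO ZT12 A, and the other 10 KO libraries held 85.0 to 149 TPM of Acsl1. The KO rhythm of Acsl1 (1.07 log2 units, adjusted p 0.0128) was lost without both of these libraries (0.74, adjusted p 0.0507). Lpin1, a phosphatidate phosphatase, was lower by 0.45 (SE 0.10, adjusted p 0.000839). Acsl3, another synthetase, was rhythmic in WT by 1.03 log2 units (SE 0.13, peak 22.7 h, adjusted p 8.54e-05). In KO its fitted range was 0.52 (adjusted p 0.0548), with an adjusted p of 0.301 for the difference in rhythm. Acsl1 and Dgat2, which makes triglyceride, were the genes of this list whose rhythm differed between genotypes by test (adjusted p 0.00503 and 0.00128).

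Of 6 tested genes of mitochondrial fatty acid synthesis, a separate route that supplies lipoic acid, 5 were higher as deposited (50.9% of all genes) and 0 after median-of-ratios scaling (21.5%). Ndufab1, the mitochondrial acyl carrier protein, was at 0.22 (adjusted p 0.000169), Cbr4 at 0.21 (adjusted p 0.000177) and Mcat at 0.23 (adjusted p 0.000265), each close to the shift of the median gene. Cbr4 also passed for a WT rhythm (0.31 log2 units, peak 8.88 h, adjusted p 0.0273), lost in 4 leave-one-out fits (adjusted p up to 0.0901, without WT ZT8 A). The adjusted p for Cbr4 was 0.716 for a KO rhythm and 0.530 for the difference in rhythm. Hsd17b8 was not analysed here. Without KO ZT4 A and KO ZT12 A the genotype counts of these 5 lists changed by at most 1 gene in either direction. The KO rhythms called for Mlx, Insig1, Idh1, Fads2 and Acsl1 also used the spread shared with WT. Fitted on the KO libraries alone, none of these genes passed (adjusted p 0.0746, 0.271, 0.179, 0.0964 and 0.147, in that order). With time as a 6-level factor none passed in KO either (adjusted p 0.0568, 0.194, 0.136, 0.131 and 0.139).

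Genes outside the pathway were ranked by the Pearson correlation of log2 values with each member over the 24 libraries, as a description. Tuba1c was among the genes most like Srebf1 (0.91). Scd2 was most like Tardbp (0.93) and Cyyr1 (0.89), and Fads1 most like Dhcr7, a cholesterol synthesis enzyme (0.92), and Insig1 (0.89). Elovl6 was most like Epn3 (0.96) and Mmd (0.95), Elovl5 like Tubb5 (0.90) and Pnpt1 (0.89), and Acaca like Gabra3 (0.83) and Dusp3 (0.80). Fasn was nearest to Thrsp, the thyroid-responsive lipogenic protein (0.75), and Scd1 had Podn (0.71) and Col15a1 (0.70). Acacb was nearest to Rgs5 (0.79) and Man1c1 (0.77), and Acly to Gm20518 (0.78). Among the members, the closest pair was Fasn and Acaca (0.85; 0.44 within WT and 0.90 within KO), followed by Srebf1 and Scd2 (0.84).

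In order of mean TPM, WT kidney ran Scd1, Acly, Fasn, Fads1, Srebf1, Scd2, Elovl5, Acaca, Acacb and Elovl6. Only the steps from Scd1 to Acly and from Elovl5 to Acaca exceeded the summed SDs of the neighbours (n = 12). In KO the order was Acly, Scd1, Fasn, Scd2, Elovl5, Fads1, Srebf1, Elovl6, Acacb and Acaca, and the step from Srebf1 (21.4 TPM) to Elovl6 (7.62 TPM) alone exceeded them. Acaca stood above Elovl6 in WT (5.23 TPM ± 0.608 against 3.83 ± 0.592) and below it in KO (3.97 ± 1.46 against 7.62 ± 2.89, SD, n = 12).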

How the data were processed

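Polyadenylated RNA was sequenced from 24 kidney libraries, 2 for each of 12 groups of genotype and time. The authors deposited TPM for each transcript, made with kallisto 0.42.4 on mm10, per the submitters' processing notes; TPM keeps no depth, so counting error is unknown. Of 88198 transcripts, 86119 matched GENCODE M21 by Ensembl ID without version and were summed per gene; unmatched ones held 1.35% to 2.24% of TPM per library. Tests used limma 3.58.1 in R 4.3.3 on log2(TPM + 0.1), which understates changes of low genes, for 12874 genes averaging 1 TPM or more. Moderation used a trend and robust setting, and p-values were Benjamini-Hochberg adjusted over all genes. The genotype test had time as a factor, tests at each time used 12 group means, and rhythms were a 24-hour cosine and sine per genotype with a shared spread. Scripts were tested on simulated data. The chromosome contact (4C-seq) files of the series were not used here.

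Members and gene lists were chosen with earlier results of these data known. The lists were regulators, precursor and NADPH supply, other elongation and desaturation, activation and glycerolipid synthesis, and mitochondrial fatty acid synthesis; from each, up to 3 genes with the smallest p among those past the threshold were named for the genotype difference and up to 2 for each rhythm test, and for each member the 2 genes most like it; some of these are not reported here. Chosen after the values were seen were the ratio pairs, the transcripts followed through the alternatives, the correlations with the adipocyte sum, the 250-base promoter window, and the fits without KO ZT4 A and KO ZT12 A or with the sum without Lipe. The labels do not say what libraries of the same letter share. Over 66 pairs of groups the A minus B differences correlated from -0.323 to 0.338 (median 0.0223), with 21 pairs over 0.1.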

Additional observations from a re-analysis of the deposited data

Results flagged for a closer look

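The rhythm of 2 genes of fatty acid activation and triglyceride synthesis differed between genotypes by a test of the difference itself. Acsl1, an acyl-CoA synthetase, was fitted with its peak at 0.07 h in WT and 13.3 h in KO (limma, adjusted p 0.00503). WT libraries held 66.0 and 64.4 TPM at ZT0 and 46.0 and 36.1 TPM at ZT12, while KO libraries held 86.9 and 85.0 TPM at ZT0 and 230 and 135 TPM at ZT12. KO exceeded WT at both times, and the order of the times was opposite. The 230 TPM came from KO ZT12 A; without it and KO ZT4 A the rhythm difference of Acsl1 had an adjusted p of 0.00769.

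Dgat2, which adds the last acyl chain of triglyceride, had a WT range of 0.66 log2 units with its peak at 10.5 h (adjusted p 9.05e-05), and a KO range of 0.20 that did not pass (adjusted p 0.284). Its rhythm difference had an adjusted p of 0.00128 in limma. At ZT12 Dgat2 was at 81.0 and 66.6 TPM in WT and 47.0 and 46.1 TPM in KO, and at ZT0 at 50.5 and 49.9 TPM in WT and 52.6 and 53.1 TPM in KO. As deposited, KO was below WT at ZT12 and slightly above it at ZT0, with no overlap at either time. The size factors of the ZT0 libraries were 0.961 and 0.984 in WT and 1.09 and 1.09 in KO. The order at ZT0 therefore depends on the scale and turns under median-of-ratios scaling. No test of Dgat2 at single times is given here.

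These differences passed in all 24 fits that left out 1 library, with adjusted p-values for Acsl1 of 0.00191 to 0.0188. With time as a 6-level factor they did not pass (adjusted p 0.137 for Acsl1 and 0.0547 for Dgat2).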

How the results depend on the processing

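The counts of members called moved as follows. ZT0: from 1 to 0 with either adipocyte covariate and 2 without KO ZT4 A and KO ZT12 A. ZT8: from 1 to 0 with no filter on low values or with a mean of at least 5 TPM, and 2 with either covariate or without those libraries. The 5 TPM filter drops Acaca. ZT12: from 4 to 2 with no filter or without those libraries. ZT16: from 3 to 1 with no filter or the covariate. ZT20: from 1 to 0 with no filter and 2 with the covariate without Lipe. Rhythms: with time as a 6-level factor from 4 to 2 in WT and 4 to 1 in KO, and to 0 in KO with each genotype fitted alone. Member transcripts: the genotype count of 7 became 3 with no filter and 4 with no time in the model. Their WT rhythm count of 6 became 2 with no filter or the time factor. Their KO rhythm count of 3 became 1 with no filter, and 0 with the time factor or each genotype alone. The cause was not tested.

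Over all genes, the KO rhythm count of 468 became 295 with no filter, 28 with the time factor and 12 fitted alone. The WT count of 1761 became 576 with the time factor and 2843 fitted alone. The rhythm difference count of 81 became 43 with no filter, 23 with the time factor and 50 with the covariate without Lipe.

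Leaving out 1 library at a time gave 6 to 7 members for genotype, 3 to 4 for the WT and 2 to 6 for the KO rhythm, 0 to 2 at ZT0, 0 to 2 at ZT8, 1 to 4 at ZT12, 0 to 3 at ZT16 and 0 to 1 at ZT20. It gave 4 to 9 transcripts for genotype, and 2 to 7 for the WT and 2 to 3 for the KO rhythm. Over all genes the rhythm counts ranged from 1193 to 2140 in WT, 272 to 620 in KO and 37 to 112 for the difference.

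The sign of 3 differences that did not pass turned: Acacb to -0.009454 and Nr1h2 to -0.1254 under median-of-ratios scaling (Nr1h2 then passed), Acly to 0.007852 without KO ZT16 B (range from -0.06529), and Nr1h2 to -0.002206 without WT ZT16 B (range to 0.04129).

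With the replicate letter as a block, 6 members were called for genotype, 4 for each rhythm and 3 at ZT12. Fasn at ZT12 was the only member call lost under the block (adjusted p 0.0537), and the labels do not say what libraries of the same letter share. TPM gives no depth, so limits set by counting could not be computed.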
